A study of Mus musculus with 10 samples.

Results

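Expression of 9 transcription factors of the subpallium, the ventral part of the developing telencephalon, was examined in cells sorted by *Grem1* lineage from embryonic mouse brain. The genes were *Gsx2*, *Nkx2-1*, *Dlx1*, *Dlx2*, *Dlx5*, *Dlx6*, *Sp9*, *Lhx6* and *Lhx8*, chosen by symbol, and all 9 are among the 14300 genes of the count table. The embryos were on the C57BL6/J background and carried Grem1creERT, a tamoxifen-inducible Cre under *Grem1* regulatory sequence, with the Rosa26LSLTdtomato reporter. Tamoxifen was given to the pregnant dams at E13.5, and brain cells were collected 24 hours later at E14.5 and sorted as live TdTomato+ or TdTomato- cells. Both populations of a mouse thus shared the genotype, the tamoxifen and the age, and they differed in reporter colour. There were 5 TdTomato+ and 5 TdTomato- libraries, a pair for each of the mice numbered 2 to 6.

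As a model, the reporter marks cells in which Cre was active under the *Grem1* sequence when tamoxifen was present, together with their progeny, so a TdTomato- cell may still have transcribed *Grem1*. The labels give the tissue as brain and the methods as dissected dorsal telencephalon without meninges. The paper counts 5 mice sorted for bulk RNA-seq, and whether a mouse number is 1 embryo or a pooled litter is not stated further in the sources used here. The p-values measure the spread between these pairs. *Grem1* itself had 128 to 201 counts in TdTomato- and 1358 to 1577 in TdTomato+ libraries, 3.37 higher on the log2 scale (s.e. 0.07), and all 10 libraries followed their labels. Total counts were 23429034 to 27286180 per library, so the populations were sequenced to similar depth.

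In the ventral telencephalon, progenitors of the ganglionic eminences are patterned by the homeodomain proteins Gsx2, in the lateral eminence, and Nkx2-1, in the medial eminence. The Dlx homeodomain proteins act downstream in progenitors and young neurons, switch on GABA synthesis genes and are needed for interneurons to migrate into the cortex. Sp9 is a zinc-finger factor of the same cells, and the LIM-homeodomain factors Lhx6 and Lhx8 act after Nkx2-1, Lhx6 in cortical interneurons of medial origin and Lhx8 chiefly in cholinergic and other neurons that stay in the basal forebrain. Excitatory neurons of the cortex arise instead from dorsal, pallial progenitors.

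In the GENCODE annotation of GRCm38, *Dlx1* (chromosome 2, 71528113 to 71533981, plus strand) and *Dlx2* (71543408 to 71546754, minus strand) face each other across 9426 bp. *Dlx6* (chromosome 6, 6863334 to 6868568, plus strand) and *Dlx5* (6877805 to 6882085, minus strand) form a second convergent pair 9236 bp apart. *Lhx6* (36081953 to 36105408, minus strand) and *Sp9* (73271925 to 73284706, plus strand) also lie on chromosome 2. *Gsx2* is on chromosome 5 (75075601 to 75077893, plus strand), *Lhx8* on chromosome 3 (154306294 to 154330659, minus strand) and *Nkx2-1* on chromosome 12 (56531958 to 56536908, minus strand). Of the exonic bases of *Dlx1*, 6.2% overlap *Dlx1as* on the other strand, 4.4% of those of *Dlx6* overlap *Dlx6os2*, 5.4% of those of *Sp9* overlap *Cir1* on the other strand and 2.2% of those of *Lhx6* overlap *Gm27953* on the same strand. The strand setting of the counts is not given in the sources used here, so reads on those bases cannot be assigned to one gene.

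Promoter windows of 300 bases, 250 before and 50 after the transcription start, were matched in RefSeq (GRCm38.p6) for 7 of the 9 genes, with 3 windows for *Lhx6* and 9 in all. The stretches printed are those upstream of the annotated exons for the gene with the largest fall between populations (*Gsx2*), the *Dlx* gene with the largest fall (*Dlx2*), the gene whose residual level varied most (*Nkx2-1*) and the gene with the smallest fall (*Lhx8*). They lie at chr5:75075351-75075600 (plus), chr2:71546755-71547004 (minus), chr12:56536909-56537158 (minus) and chr3:154330660-154330810 (minus). Each is written 5′ to 3′ on the gene's strand, and capitals mark the core of a GC-rich box, on either strand, or a box of T and A bases, both spelled out after the sequences.
Gsx2: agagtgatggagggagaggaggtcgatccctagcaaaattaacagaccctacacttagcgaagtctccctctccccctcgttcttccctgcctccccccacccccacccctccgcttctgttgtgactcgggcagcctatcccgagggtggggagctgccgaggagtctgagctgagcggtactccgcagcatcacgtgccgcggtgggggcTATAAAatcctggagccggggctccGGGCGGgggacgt
Dlx2: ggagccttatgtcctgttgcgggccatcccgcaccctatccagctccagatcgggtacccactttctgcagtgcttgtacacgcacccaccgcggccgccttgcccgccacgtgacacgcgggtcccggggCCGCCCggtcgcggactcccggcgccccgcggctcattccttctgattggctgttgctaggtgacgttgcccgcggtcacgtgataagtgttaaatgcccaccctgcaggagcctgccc
Nkx2-1: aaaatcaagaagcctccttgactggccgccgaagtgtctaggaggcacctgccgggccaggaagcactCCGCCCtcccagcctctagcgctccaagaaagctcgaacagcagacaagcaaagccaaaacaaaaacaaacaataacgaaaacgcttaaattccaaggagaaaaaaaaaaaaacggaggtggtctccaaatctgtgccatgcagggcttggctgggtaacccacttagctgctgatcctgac
Lhx8: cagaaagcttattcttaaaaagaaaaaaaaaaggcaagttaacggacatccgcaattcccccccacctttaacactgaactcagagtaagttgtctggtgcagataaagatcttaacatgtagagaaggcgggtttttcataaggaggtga
The 4 motifs searched, on both strands, do not contain one another. GGGCGG, bound by Sp family proteins, was present in 7 of the 9 windows and in 35.7% of all 32851 promoters, and the core promoter element TATAAA in 2 of 9 and in 13.6%. CAGCTG, an E-box, was in 1 of 9 windows and in 16.3% of all, and TAATTA, a homeodomain core, in 0 of 9 and in 5.29%. The *Lhx8* window held none of the 4 motifs and had a GC content of 47.0%, below the median of 52.7% over all promoters, whereas the *Dlx2* window had 66.3%. A match or its absence describes these letters alone.

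All 9 genes were lower in TdTomato+ than in TdTomato- libraries of the same mouse in 5 of 5 mice, by 4.49-fold for *Lhx8* to 95.7-fold for *Gsx2*. Levels are given as CPM, the counts of a gene relative to the library total, which was adjusted by TMM so that the bulk of genes balances between libraries. Paired tests between the populations were made in edgeR with mouse number as blocking factor, and adjusted p denotes Benjamini-Hochberg adjustment across the 14300 genes. All 9 were called lower at an adjusted p of 0.05 or less with a log2 fold change of −2 or below, as were 9.74% of all genes tested, and 39.4% were lower by adjusted p alone. In each gene the highest TdTomato+ library was below the lowest TdTomato- library, as in 32.4% of all genes. The median log2 fold change was −5.0 over the 9 genes and −0.01 over all genes. *Gsx2* was under 0.5 CPM in every TdTomato+ library and entered the table through its TdTomato- libraries, so its presence there already required a difference and it adds no support to these counts. The other 8 genes had a median of −4.72. In sorted bulk RNA, fewer cells that express a gene and less RNA in each such cell cannot be told apart.

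**Figure D1:**
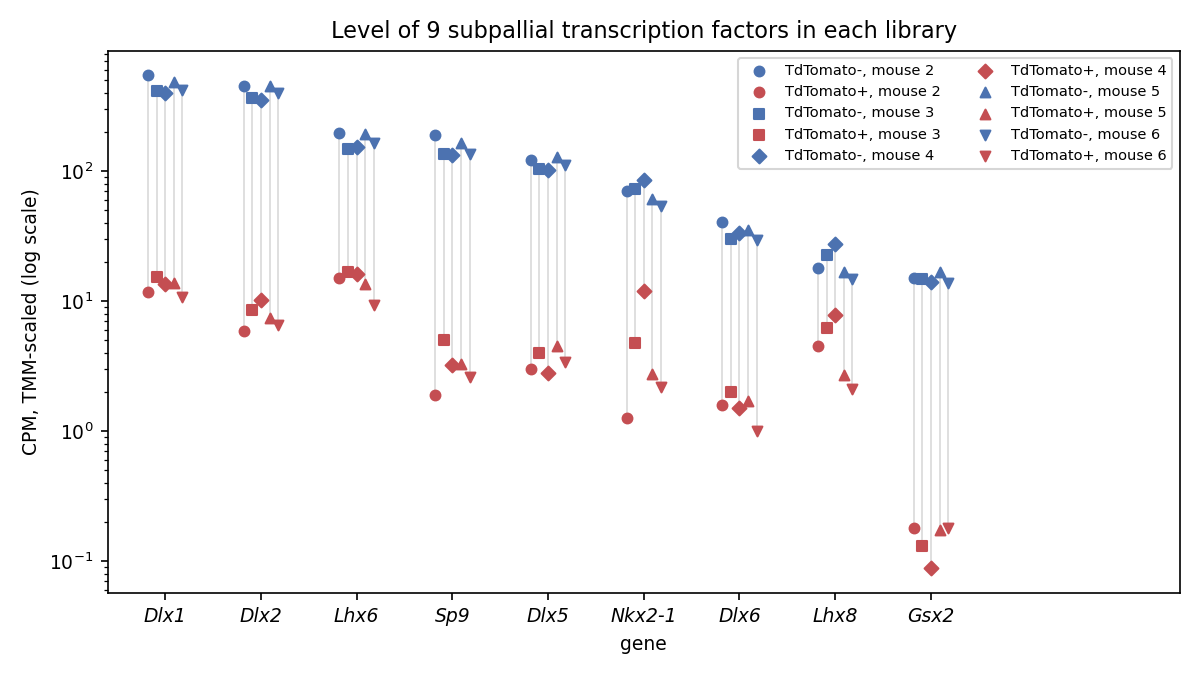
Level of each transcription factor in each of the 10 libraries, in TMM-scaled CPM on a log axis, with TdTomato- in blue, TdTomato+ in red, a marker shape for each mouse and grey lines joining the libraries of a mouse. No red point reaches a blue point of the same gene, the *Nkx2-1* points of TdTomato+ spread from 1.27 to 12.0 CPM, and those of *Gsx2* lie between 0.0883 and 0.181 CPM.

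Of the progenitor factors, *Gsx2*, which specifies the lateral ganglionic eminence, had 385, 427, 349, 424 and 396 counts in the TdTomato- libraries of mice 2 to 6 and 4, 3, 2, 4 and 4 in the TdTomato+ libraries. It was thus close to absent from every TdTomato+ library, and in 2 of them it was at or under a floor of 3 counts. The TdTomato+ libraries held 17 counts in all (95% exact Poisson interval 9.9 to 27.2, counting error only), against 1981 in TdTomato- libraries. Its mean level was 14.9 ± 1.19 CPM (SD, n = 5) in TdTomato- and 0.151 ± 0.0409 CPM in TdTomato+ libraries. The log2 fold change was −6.58 (s.e. 0.16, edgeR adjusted p = 2.6e-09), given as a description, since its entry to the table already required a difference. With so few counts this value depended on the prior count of the fit, and it was −6.01 with a prior count of 2.

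*Nkx2-1*, which specifies the medial ganglionic eminence, had 1791, 2101, 2138, 1545 and 1545 counts in TdTomato- and 28, 110, 271, 63 and 48 counts in TdTomato+ libraries of mice 2 to 6. Mouse 4 was the highest of both populations, and in TdTomato+ its level of 12.0 CPM stood against 1.27 to 4.77 CPM in the other mice. The ranges of the populations, 53.8 to 85.7 and 1.27 to 12.0 CPM, did not overlap. The mean fell from 68.7 ± 12.1 to 4.58 ± 4.32 CPM (SD, n = 5), for which edgeR gave −4.08 on the log2 scale (s.e. 0.31, edgeR adjusted p = 2.4e-06). Without mouse 4 the mean of the TdTomato+ libraries was 2.74 CPM and the log2 fold change −4.58. The coefficient of variation over TdTomato+ libraries was 94.3%, against 13.7% for *Dlx1*, the steadiest of the 9 genes.

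*Dlx1* and *Dlx2*, which are switched on in progenitors as they become committed, were the most abundant of the 9 genes per kilobase of exon in TdTomato- libraries. *Dlx1* had 13946, 11865, 10008, 12148 and 12137 counts in TdTomato- and 261, 352, 306, 319 and 237 in TdTomato+ libraries of mice 2 to 6. *Dlx2* had 11447, 10536, 8845, 11488 and 11546 counts in TdTomato- and 130, 198, 231, 170 and 146 in TdTomato+ libraries. Neither gene came close to overlapping between populations, since the lowest TdTomato- library had 401 CPM of *Dlx1* and 355 CPM of *Dlx2* and the highest TdTomato+ library 15.3 and 10.2 CPM. *Dlx1* fell from 452 ± 60.7 to 13 ± 1.79 CPM (log2 fold change −5.11, s.e. 0.11, edgeR adjusted p = 2.0e-09). *Dlx2* fell from 405 ± 46.2 to 7.73 ± 1.70 CPM (log2 fold change −5.71, s.e. 0.15, edgeR adjusted p = 4.4e-09), a 52.3-fold difference against 34.5-fold for its neighbour.

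*Dlx5* and *Dlx6*, which follow *Dlx1* and *Dlx2* in the same lineage, were less abundant per kilobase than that pair in TdTomato- libraries. *Dlx5* had 3115, 2994, 2555, 3219 and 3180 counts in TdTomato- and 66, 92, 63, 104 and 76 in TdTomato+ libraries of mice 2 to 6. *Dlx6* had 1036, 877, 835, 894 and 853 counts in TdTomato- and 35, 46, 34, 39 and 22 in TdTomato+ libraries. The highest TdTomato+ library had 4.52 CPM of *Dlx5* and 2.00 CPM of *Dlx6*, and the lowest TdTomato- library 102 and 29.7 CPM. *Dlx5* fell from 113 ± 11.1 to 3.54 ± 0.716 CPM (log2 fold change −5.0, s.e. 0.09, edgeR adjusted p = 1.5e-09). *Dlx6* fell from 33.9 ± 4.37 to 1.55 ± 0.365 CPM (log2 fold change −4.44, s.e. 0.12, edgeR adjusted p = 4.9e-09).

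*Sp9*, which promotes the differentiation of GABAergic neurons of the ganglionic eminences, had 4809, 3929, 3309, 4153 and 3917 counts in TdTomato- and 42, 115, 73, 76 and 58 in TdTomato+ libraries of mice 2 to 6. Mouse 2 had the most counts in TdTomato- and the fewest in TdTomato+, and the populations did not overlap. The level fell from 152 ± 24.1 to 3.21 ± 1.14 CPM, 46.9-fold (log2 fold change −5.55, s.e. 0.20, edgeR adjusted p = 1.8e-08).

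*Lhx6*, which is kept on in migrating interneurons of medial origin, had 5052, 4256, 3803, 4857 and 4775 counts in TdTomato- and 334, 387, 367, 312 and 205 in TdTomato+ libraries of mice 2 to 6. The populations did not overlap, and mouse 6 was the lowest in TdTomato+ at 9.27 CPM. The mean fell from 171 ± 22.9 to 14.2 ± 3.01 CPM. The log2 fold change was −3.60 (s.e. 0.14, edgeR adjusted p = 3.2e-08), a 12.1-fold difference.

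*Lhx8*, needed for cholinergic neurons of the basal forebrain, had 459, 661, 680, 421 and 427 counts in TdTomato- and 99, 144, 176, 62 and 47 in TdTomato+ libraries of mice 2 to 6. Mice 3 and 4 were the highest in both populations, with 22.8 and 27.3 CPM in TdTomato- and 6.25 and 7.77 CPM in TdTomato+. The populations did not overlap, but the lowest TdTomato- library, at 14.9 CPM, was less than 2-fold above the highest TdTomato+ library. The mean fell from 19.9 ± 5.06 to 4.66 ± 2.37 CPM (log2 fold change −2.17, s.e. 0.15, edgeR adjusted p = 1.3e-06), the smallest fall of the 9 genes. A test of whether the fold change exceeded 2 on the log2 scale (TREAT) gave an adjusted p of 0.45 for *Lhx8*, whereas the other 8 genes passed it.

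The residual level, the TdTomato+ CPM as a percent of the TdTomato- CPM of the same mouse, put the genes on a common scale. Its geometric mean over 5 mice was 0.981% for *Gsx2*, 1.88% for *Dlx2*, 2.03% for *Sp9*, 2.88% for *Dlx1*, 3.09% for *Dlx5*, 4.5% for *Dlx6*, 4.96% for *Nkx2-1*, 8.17% for *Lhx6* and 21.4% for *Lhx8*. *Gsx2* and *Dlx2* thus had the lowest shares left and the LIM-homeodomain factors the highest. Mice differed most for *Nkx2-1*, whose residual was 1.81% in mouse 2, 6.57% in mouse 3, 14.0% in mouse 4, 4.47% in mouse 5 and 4.03% in mouse 6. The counting intervals (95% exact) were 1.20 to 2.63% in mouse 2 and 12.3 to 15.8% in mouse 4, and they cover counting error only. For *Gsx2* the 5 values lay between 0.631 and 1.31%, each within the counting interval of the others. *Lhx8* was at 25, 27.3, 28.5, 16.2 and 14.3% in mice 2 to 6, and *Lhx6* at 7.67, 11.4, 10.6, 7.05 and 5.57%.

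**Figure D2:**
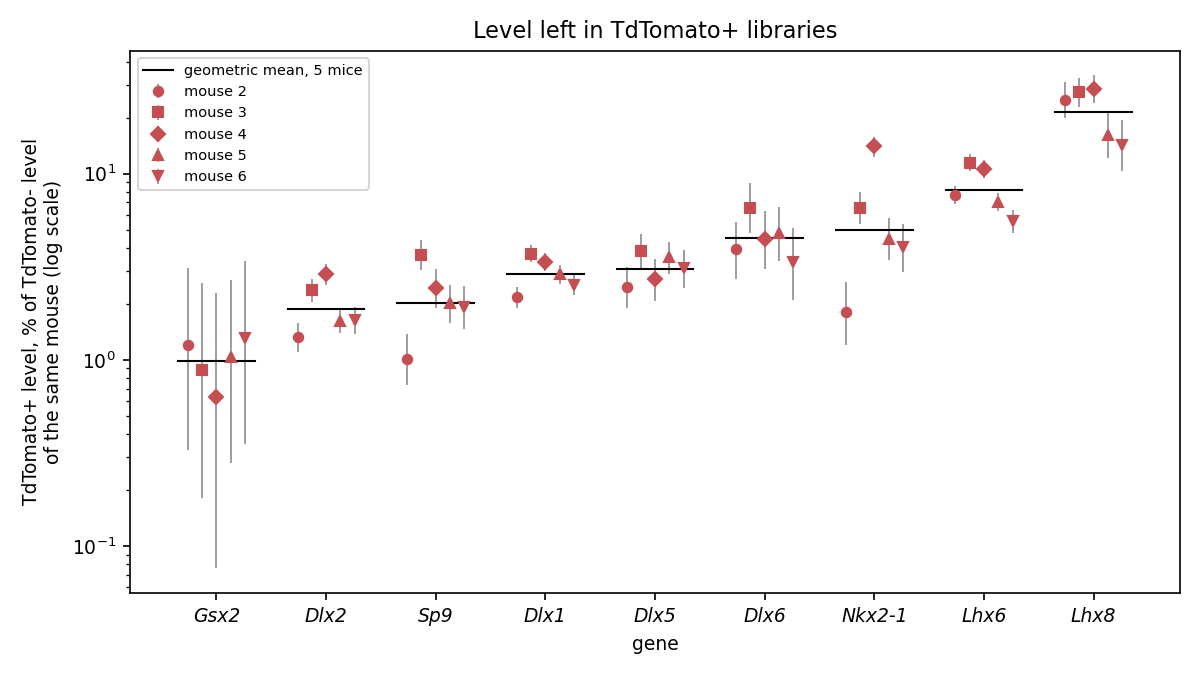
Level left in the TdTomato+ library as a percent of the TdTomato- library of the same mouse, on a log axis, for each gene and mouse, with 95% counting intervals as grey bars and the geometric mean over 5 mice as a black line. The means run from 0.981% for *Gsx2* to 21.4% for *Lhx8*, and mouse 4 stands at 14.0% for *Nkx2-1*.

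Differences between neighbours in this order are given as a description, with no test, since the order was set by the same 5 mice. *Lhx8* exceeded *Lhx6* in each mouse, by 1.39 ± 0.20 on the log2 scale (mean ± SD, n = 5), and the ranges did not overlap. *Dlx6* exceeded *Dlx5* by 0.54 ± 0.27 and *Dlx1* exceeded *Sp9* by 0.50 ± 0.39, each in 5 of 5 mice with overlapping ranges. *Dlx2* exceeded *Gsx2* by 0.94 ± 0.85 in 5 of 5 mice, with ranges that adjoined at 1.31 and 1.32% without overlap, and in 4 of 5 mice the *Dlx2* value lay within the counting interval of *Gsx2*. The other neighbours differed by less than or about their spread. These were *Dlx2* and *Sp9* (0.11 ± 0.42), *Dlx1* and *Dlx5* (0.10 ± 0.25), *Dlx6* and *Nkx2-1* (0.14 ± 0.99) and *Nkx2-1* and *Lhx6* (0.72 ± 0.89).

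Among the *Dlx* counts that were left, *Dlx2* had a lower share in every mouse, and *Dlx1* and *Dlx6* had higher shares. Of the summed counts of *Dlx1*, *Dlx2*, *Dlx5* and *Dlx6*, which were 22243 to 29544 in TdTomato- compared with 481 to 688 in TdTomato+ libraries, *Dlx2* took 38.7, 40.1, 39.8, 41.4 and 41.7% in TdTomato- libraries of mice 2 to 6 and 26.4, 28.8, 36.4, 26.9 and 30.4% in TdTomato+ libraries. The share of *Dlx2* was lower in TdTomato+ in 5 of 5 mice, by 10.6 ± 4.24 percentage points from a mean of 40.3% to one of 29.8%. *Dlx1* was higher by 5.46 ± 1.30 points, from 45.0 to 50.4%, and *Dlx6* by 2.60 ± 0.987 points, from 3.38 to 5.98%, both in 5 of 5 mice. For each of these 3 genes the populations did not overlap, and the exact two-sided sign-flip permutation test gave p = 0.0625, the smallest it can give, and 0.0833 after adjustment over the 4 genes, so the differences exceeded the spread but could not pass 0.05. The share of *Dlx5* was higher in 4 of 5 mice, by 2.50 ± 2.53 points (exact permutation p = 0.125). The 4 shares of a library make up its whole, so a lower share of *Dlx2* forces higher shares among the others. The rises are therefore not results separate from the fall. These shares do not depend on how libraries are scaled, and per kilobase of exon the differences had the same signs, with −12.2 points for *Dlx2*.

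**Figure D3:**
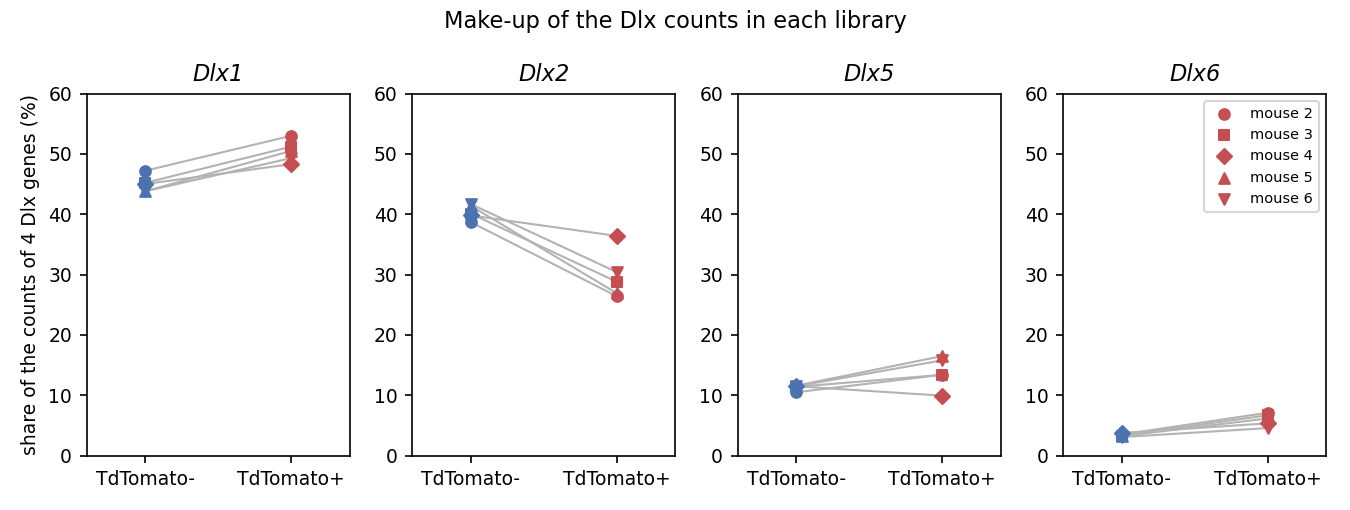
Share of the summed counts of *Dlx1*, *Dlx2*, *Dlx5* and *Dlx6* that each gene took, in percent, in TdTomato- (blue) and TdTomato+ (red) libraries, with lines joining the libraries of a mouse. In TdTomato+ the *Dlx2* share is lower in all 5 mice (mean 29.8% against 40.3%), the *Dlx1* and *Dlx6* shares are higher in all 5, and the *Dlx5* share is higher in 4.

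Ratios between factors, given as values only, also differed between the populations. There were 0.404 to 0.441 counts of *Lhx6* for each count of *Dlx2* in TdTomato- libraries and 1.4 to 2.57 in TdTomato+ libraries. The ratio of *Lhx8* to *Nkx2-1*, which acts upstream of it, was 0.256 to 0.318 in TdTomato- compared with 0.649 to 3.54 in TdTomato+ libraries, with the highest value in mouse 2. The ratio of *Nkx2-1* to *Lhx6* did not separate the populations, at 0.318 to 0.562 in TdTomato- compared with 0.0838 to 0.738 in TdTomato+ libraries, and it was lower in TdTomato+ in every mouse except mouse 4.

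Levels of different genes were compared as CPM per kilobase of exon. In TdTomato- libraries the order was *Dlx2* (142 ± 16.2), *Dlx1* (83.8 ± 11.2), *Dlx5* (50 ± 4.92), *Lhx6* (35.6 ± 4.77), *Sp9* (30.0 ± 4.78), *Nkx2-1* (24.2 ± 4.25), *Dlx6* (14.3 ± 1.84), *Gsx2* (8.94 ± 0.716) and *Lhx8* (7.87 ± 2.00). The ranges of *Lhx6* and *Sp9*, of *Sp9* and *Nkx2-1* and of *Gsx2* and *Lhx8* overlapped, and those of the other neighbours did not. In TdTomato+ libraries the order per kilobase was *Lhx6* (2.95 ± 0.627), *Dlx2* (2.71 ± 0.596), *Dlx1* (2.42 ± 0.331), *Lhx8* (1.84 ± 0.937), *Nkx2-1* (1.61 ± 1.52), *Dlx5* (1.57 ± 0.317), *Dlx6* (0.655 ± 0.154), *Sp9* (0.636 ± 0.227) and *Gsx2* (0.0906 ± 0.0246). There the ranges of neighbours overlapped except between *Dlx5* and *Dlx6* and between *Sp9* and *Gsx2*. *Nkx2-1* exceeded *Dlx5* in 1 of 5 of these libraries, and its place rests on mouse 4, without which its mean was 2.74 CPM in place of 4.58.

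Both listed antisense RNAs at the *Dlx* pairs, *Dlx1as* and *Dlx6os1*, fell with them. *Dlx1as*, of whose exonic bases 20.6% overlap *Dlx1*, so that reads there cannot be assigned to either, had 1687 to 1860 counts in TdTomato- and 40 to 68 in TdTomato+ libraries (log2 fold change −4.77, s.e. 0.10, edgeR adjusted p = 1.7e-09). *Dlx6os1*, also known as *Evf2*, of whose exonic bases 9.5% overlap other annotated RNAs, is an RNA that regulates the *Dlx5* and *Dlx6* pair, and it had 5385 to 7210 and 134 to 208 counts (log2 fold change −4.95, s.e. 0.09, edgeR adjusted p = 1.5e-09). Their residual levels, 3.61 and 3.21%, lay within the range of the 4 *Dlx* genes.

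The genes whose profile over the 10 libraries was closest to the mean profile of the 9 factors were *Pon2*, *Cdk2*, *Col2a1*, *Gm14204*, *Dlx1as*, *Gtse1*, *Dlx6os1* and *Cenpe*, by the Euclidean distance between log2 CPM values centred on each gene's mean. The distances were 0.37 for *Pon2*, 0.47 for *Cdk2* and up to 0.65 for *Cenpe*, whereas the factors themselves lay 0.68 (*Dlx6*) to 4.11 (*Lhx8*) from their own mean. *Pon2*, which encodes a paraoxonase, had 295 to 340 counts in TdTomato- and 6 to 11 in TdTomato+ libraries, and *Cdk2*, a cell cycle kinase, had 996 to 1248 and 23 to 46. With 5 libraries of each colour this distance is set mainly by the size of the fall.

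Other transcription factors of subpallial progenitors and neurons were mostly lower too. Of 26 listed, 24 were lower in TdTomato+ at an adjusted p of 0.05 or less, 18 of them past a log2 fold change of 2, and 2 were higher. Over all genes tested, 39.4% were lower and 9.74% were lower past 2, and the median log2 fold change was −0.01 against −3.83 for the list. The largest falls were those of *Olig2*, a progenitor factor (35.4 ± 4.01 to 0.510 ± 0.214 CPM, log2 fold change −6.09, s.e. 0.18), of *Vax1* (−5.55, s.e. 0.23) and of *Gsx1*, the relative of *Gsx2* (6.35 ± 1.10 to 0.131 ± 0.111 CPM, −5.54, s.e. 0.32), with edgeR adjusted p of 6.6e-09, 4.1e-08 and 3.7e-07. *Gsx1* had 0 to 7 counts in TdTomato+ libraries and, like *Gsx2*, entered the table through its TdTomato- libraries, so its presence there already required a difference. The same holds for *Nkx6-2*, with 0 to 1 counts in TdTomato+ libraries. *Olig2* and *Npas1* exceeded 0.5 CPM in only 2 TdTomato+ libraries each and *Vax1* in 1, so their entry also rested mainly on TdTomato- libraries. All of these genes are counted among the 24 but add no support. The smallest were those of *Meis2* (log2 fold change −0.95, s.e. 0.05, edgeR adjusted p = 1.6e-07) and *Satb1* (−0.89, s.e. 0.29, edgeR adjusted p = 0.019). *Zeb2* rose from 406 ± 36.7 to 811 ± 76.8 CPM and *Lmo3* from 91.1 ± 9.77 to 277 ± 57.3 CPM (log2 fold changes 1.00 and 1.59, edgeR adjusted p of 6.3e-08 and 1.8e-07). *Zeb2*, *Satb1* and *Meis2* are also expressed by pallial cells of the cortex.

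Genes of GABA signalling and interneuron migration showed the same direction. All 11 listed were lower at an adjusted p of 0.05 or less, 10 of them past a log2 fold change of 2, against 39.4% and 9.74% of all genes, with a median of −3.86. *Cxcr4*, a chemokine receptor of migrating interneurons, fell from 26.8 ± 6.87 to 1.25 ± 0.587 CPM (log2 fold change −4.42, s.e. 0.24, edgeR adjusted p = 2.4e-07). *Erbb4*, the neuregulin receptor, fell from 97.6 ± 15.0 to 4.64 ± 1.24 CPM, and *Sst*, which encodes somatostatin, from 45.4 ± 13.7 to 2.60 ± 1.46 CPM (log2 fold changes −4.39 and −4.16, edgeR adjusted p of 2.0e-08 and 2.8e-08). *Gad2*, one of the GABA-synthesising enzymes, had the same log2 fold change of −4.16. The smallest falls were those of the neuropeptide gene *Npy* (−2.14, s.e. 0.38, edgeR adjusted p = 6.6e-04) and of *Calb2*, which encodes calretinin (−1.43, s.e. 0.21, edgeR adjusted p = 2.1e-04).

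**Figure D4:**
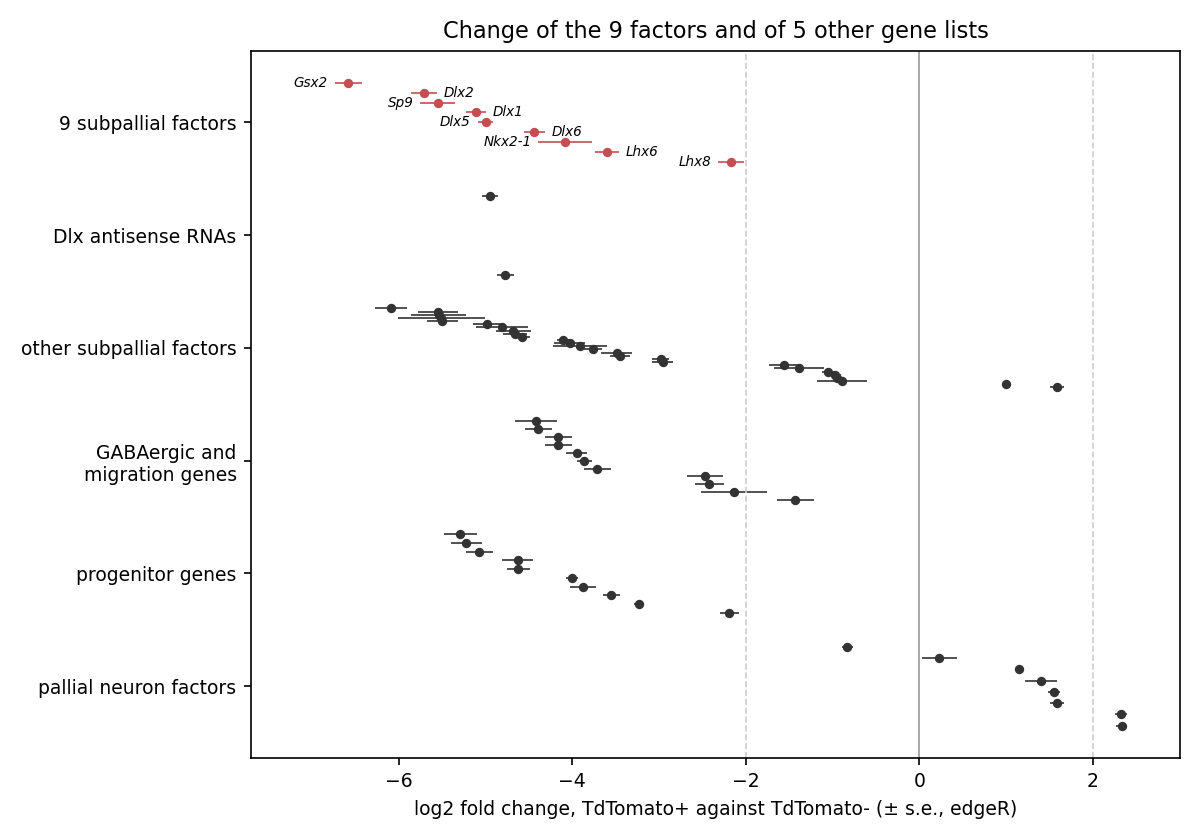
Log2 fold change of TdTomato+ against TdTomato- libraries (edgeR, bars ± s.e., negative values are lower in TdTomato+) for the 9 factors in red and for genes of 5 other lists in black, with dashed lines at −2 and 2. The 9 factors run from −6.58 (*Gsx2*) to −2.17 (*Lhx8*), the other subpallial factors from −6.09 to 1.59, and the pallial neuron factors from −0.83 to 2.33.

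Most factors of pallial neurons did not fall, whereas genes of progenitors did. Of 8 pallial neuron factors, 6 were higher in TdTomato+ libraries, as were 37.9% of all genes tested, 1 (*Emx1*) was lower and 1 (*Bhlhe22*) was not called, and their summed CPM was 264 to 336% of that in the TdTomato- library of the same mouse. A list of 10 progenitor genes held *Pax6*, *Eomes*, *Neurog2* and *Emx2*, which are chiefly pallial, and *Sox2*, *Hes1*, *Hes5*, *Vim*, *Nes* and *Slc1a3*, which progenitors of the ganglionic eminences also express. All 10 were lower past a log2 fold change of 2, as were 9.74% of all genes, and their sum was left at 6.89 to 8.99%. The summed CPM of the 9 subpallial factors was left at 2.76, 4.82, 5.16, 3.22 and 2.82% in mice 2 to 6, and that of the GABA and migration genes at 6.75, 12.9, 13.7, 10.2 and 8.69%. Mice 3 and 4 thus had the highest residual in both lists.

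Markers of other cells in the tissue differed in how their residual ran over the mice. The counts that follow stand against 39.4% of all genes called lower and 37.9% called higher. The 5 erythroid genes listed were all in the table and all lower in TdTomato+, with a summed level of 74.2 to 258 CPM in TdTomato- compared with 1.18 to 25.7 CPM in TdTomato+ libraries, and their residual was 1.08, 11.8, 24.9, 1.71 and 2.00% in mice 2 to 6, again highest in mice 3 and 4. Of 6 microglial genes, 5 were in the table and lower, at 11.4 to 55.6 CPM in TdTomato- compared with 0.680 to 1.63 CPM in TdTomato+ libraries, with residuals of 1.22, 7.23, 5.23, 2.15 and 3.41%. Of these 5 genes, 4 were under 0.5 CPM in every TdTomato+ library and so entered the table through TdTomato- libraries, and *C1qa* and *C1qb* were at or under 3 counts in every TdTomato+ library. The part of these cells in the residual level of the subpallial factors was not tested. Summed levels were 9.58 to 15.5 and 0.927 to 2.57 CPM for 3 of 4 pericyte genes, 2.61 to 4.44 and 1.72 to 3.13 CPM for 3 of 6 endothelial genes, and 1.88 to 5.29 and 0.564 to 1.09 CPM for 2 of 4 meningeal genes, in TdTomato- and TdTomato+ libraries respectively. Of these, 2 of the 3 pericyte, 1 of the 3 endothelial and 1 of the 2 meningeal genes were called lower, and the others were not called. The meningeal gene called lower was under 0.5 CPM in every TdTomato+ library and entered the table through TdTomato- libraries. Markers of striatal projection neurons, which also derive from *Gsx2* and *Dlx* progenitors, were divided, with 5 of 7 lower and 2 higher. The 2 were *Ppp1r1b*, which rose from 15.8 ± 2.13 to 152 ± 16.7 CPM, and *Drd1*, which rose from 2.53 ± 0.329 to 33.9 ± 5.10 CPM, so the sum of 42.3 to 56.7 CPM in TdTomato- compared with 167 to 205 CPM in TdTomato+ libraries reflects these genes and not the list. Of the 5, *Tac1* was under 0.5 CPM in every TdTomato+ library and entered the table through TdTomato- libraries. All 4 Cajal-Retzius genes, both oligodendrocyte precursor genes in the table and the 1 choroid plexus gene in it were lower. Residuals in mice 2 to 6 were 66.9, 42.4, 40.0, 73.0 and 47.0% for the Cajal-Retzius sum and 50.7, 19.4, 16.7, 43.5 and 40.1% for the meningeal sum. Both were lowest in mice 3 and 4, and the pericyte residual was highest in mouse 3 (22.9%) and lowest in mouse 4 (9.67%).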

How the data were processed

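RNA was measured in 10 libraries of sorted cells. The authors trimmed the reads, aligned them with STAR 2.4.2a to GRCm38 and deposited counts of reads per gene, with no normalization. The submitters' processing notes also name edgeR 3.28.0. The labels and the methods differ in library kit and read length, and the annotation release is not given in the sources used here. By total counts, without TMM, each gene of the table exceeds 0.5 CPM in 5 libraries or more, and 14271 of its 14300 identifiers matched a symbol in GENCODE M21. Total counts of 23429034 to 27286180 put the floor of 3 counts at 0.11 to 0.128 TMM-scaled CPM.

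Counts were fitted by the quasi-likelihood method of edgeR 4.0.16 (R 4.3.3), after filterByExpr and TMM, with a prior count of 0.125 and the mouse as a block, as the methods describe paired comparisons. Deviations of the libraries from their group means correlated within mice 2 to 6 at 0.303, 0.268, 0.281, 0.186 and 0.316, and between mice at −0.312 to 0.212. *Dlx* shares were compared by exact sign-flip permutation tests. The same test planned for neighbouring residual levels is not reported, since those levels set the order. Alternatives were RLE normalization, total counts only, no block, no filter, a filter of more than 1 CPM, TREAT, a prior count of 2, DESeq2 1.42.0 and leaving out each mouse. The genes, the lists and the tests were chosen with earlier results of these data known. Named genes of the lists of other subpallial factors and of GABA and migration genes are the 3 with the largest fall, the 2 with the smallest fall and each that rose. *C1qa* and *C1qb* were named for their low counts, and *Nkx6-2*, *Npas1*, *Tac1*, *Gad2*, *Emx1*, *Bhlhe22*, *Ppp1r1b* and *Drd1* after their values were seen. Likeness named the 8 nearest genes.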

Additional observations from a re-analysis of the deposited data

How the results depend on the processing

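*Gsx2*, whose entry to the table required a difference, and the other 8 factors were called lower under RLE normalization, total counts only, no replicate block, no filter, a filter of more than 1 CPM, a prior count of 2, DESeq2 and with each mouse left out, and under TREAT *Lhx8* did not pass (adjusted p 0.45), which left 8 of 9. The number of genes called in all was 1850, against 1846 without the mouse as a block, 1350 under TREAT, 1875 with DESeq2 and 1831 to 1866 with each mouse left out. Total counts only moved the median of all genes to −0.18. Without a mouse, the log2 fold change of *Nkx2-1* was −4.58 to −3.81 and that of *Lhx8* −2.27 to −2.03. Leaving out a mouse in the mean of each population was added after seeing the data, and it moved 1 of 18 means by more than 1.5 times, that of *Nkx2-1* in TdTomato+ libraries. The *Dlx2* share differed by −12.4 to −9.57 points without a mouse. Of the 9 factors, *Gsx2* had the fewest counts in TdTomato+ libraries, 2 to 4.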

Other observations

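Several genes of the interneuron lists set mice 3 and 4 beside each other in 1 or both populations, and this grouping was not particular to those lists. *Sst* had 1505 and 1652 counts in the TdTomato- libraries of mice 3 and 4 and 841 to 1043 in the others, and 92 and 94 counts in the TdTomato+ libraries against 23 to 59. *Lhx8* and *Nkx2-1* were also highest in the TdTomato- libraries of these mice. *Npy* and *Satb1* went the other way in TdTomato+ libraries, where *Npy* had 23 and 22 counts in mice 3 and 4 and 77 to 181 in the others, and *Satb1* had 1002 and 847 counts against 2664 to 3281. In TdTomato- libraries *Satb1* had 3625 to 4644 counts and *Npy* 297 to 433, with no such gap. The labels give the mice no batch or litter, and these differences were noticed in the data and not tested. A separate check of 22 groups of 5 libraries for a single library far from the others found 0, where chance gives about 1 in 20. It looks for 1 library apart and so has no bearing on mice 3 and 4 standing together.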
